A study of Mus musculus with 7 samples.

Results

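The immunity-related GTPases (IRGs) are a family of GTPases, many of which are induced by interferon in mice. Of the 55401 genes in the deposited count table, 9 were taken by their symbols: Irgm1, Irgm2, Igtp, Iigp1, Ifi47, Tgtp1, Tgtp2, Gm4951 and Gm12250. The family was picked with its levels in the ATG7 and EYFP libraries already known. The difference between these groups is therefore given for the 9 genes as a description, with no test.

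RNA was sequenced from microglia of the dorsal hippocampus of C57BL/6 mice, male by the series title and 6 to 8 weeks old. In both groups the dorsal dentate gyrus was injected with AAV-RAM-Cre, in which a promoter driven by neuronal activity expresses Cre in engram neurons, the cells recruited by an experience. The control group (EYFP, 4 libraries) also received AAV-Dio-EYFP, a Cre-dependent fluorescent protein. The other group (ATG7, 3 libraries) received AAV-Dio-Atg7-Flag, which overexpresses the autophagy protein ATG7 in those neurons and not by design in the microglia. Microglia were enriched with CD11b beads, and nothing in the labels says whether each library came from a separate mouse, so the p-values measure the spread between these libraries.

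IRG proteins coat the vacuoles in which parasites such as Toxoplasma and bacteria such as Chlamydia live, and break the vacuole membrane open. They fall in a pair of classes named for a motif in the GTP-binding site. The GMS proteins Irgm1, Irgm2 and Igtp (also called Irgm3) sit on the host's own membranes, where they hold the others inactive. The GKS proteins, which include Iigp1 (Irga6), the Tgtp proteins (Irgb6), Ifi47 (Irgd) and the product of Gm12250 (Irgb10), are the effectors that load onto vacuoles. That loading needs the enzymes that attach ATG8 proteins to membranes, ATG7 among them. Interferon gamma induces the genes, with the transcription factor IRF1 among those that act on them, and type I interferon induces many of them as well.

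Library totals ranged from 35934210 to 55217119 counts, so that 3 counts corresponded to 0.0543 to 0.0835 CPM (counts divided by the library total and expressed on a common scale). Levels are CPM adjusted further by the trimmed mean of M values (TMM), and a ± is the SD over the 4 EYFP or the 3 ATG7 libraries. EYFP 3 stood apart in a way that goes against the male label: Xist, the transcript of the inactive X chromosome, was at 938.0 CPM there and at or below 0.573 CPM in the other 6 libraries. Y-linked genes were detected there too, at lower levels than elsewhere, with Ddx3y at 27.6 CPM in EYFP 3 and at 121.1 to 168.6 CPM in the other 6. Members are therefore given with and without EYFP 3. The 8 markers of microglia, Csf1r and P2ry12 among them, summed to between 20931 and 25399 CPM in EYFP and between 20666 and 25534 CPM in ATG7. The 5 choroid plexus markers, led by Ttr, summed to 53032 to 69826 CPM in EYFP and 44797 to 59158 CPM in ATG7, so RNA of other cells was present in every library.

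Of the 19199 genes that could be tested, 0.755% passed a Benjamini-Hochberg adjusted p of 0.05 in the quasi-likelihood test of edgeR, 0.688% as higher in ATG7, and 6.33% had all 3 ATG7 libraries above all 4 EYFP libraries. All 9 IRG genes entered the fit. In it 6 of the 9 passed as higher in ATG7, 0 as lower, and in 8 of the 9 the groups did not overlap. Because the genes were chosen on this contrast, nothing is read from these counts. The number that passed as higher was 6 without EYFP 3, when 0.749% of all genes did so. It fell to 3 without EYFP 2 (0.452% of all genes), 2 without EYFP 4 (0.142%), 3 without ATG7 2 (0.134%) and 3 without ATG7 3 (0.138%). With DESeq2 it was 7 (2.39% of all genes), and with no filter on low counts 5 (0.709%).

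The GMS genes were the most abundant of the family. Irgm1 (ENSMUSG00000046879, chromosome 11, 48861968 to 48871683, minus strand, GRCm38) encodes a regulator needed for resistance to many intracellular pathogens. Its levels in EYFP 1 to 4 were 72.7, 60.4, 48.9 and 53.4 CPM, and in ATG7 1 to 3 they were 90.5, 94.7 and 105.8 CPM. The lowest ATG7 library lay above EYFP 1, the highest control. The log2 fold change was 0.72 with a standard error (SE) of 0.121, and 0.64 without EYFP 3.

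Irgm2 (ENSMUSG00000069874, chromosome 11, 58199618 to 58222782, plus strand), a GMS protein of the Golgi region, was at 100.1, 84.6, 99.3 and 85.3 CPM in EYFP 1 to 4. In ATG7 1 to 3 it was at 105.1, 111.1 and 120.1 CPM. The groups were separate by a narrow margin, and the log2 fold change of 0.28 (SE 0.0855) was the smallest of the 8 that were positive. It was 0.31 without EYFP 3 and 0.22 without ATG7 3.

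Igtp (ENSMUSG00000078853, chromosome 11, 58199556 to 58207591, plus strand), which encodes the GMS protein of the endoplasmic reticulum, was at 42.9, 37.96, 36.2 and 35.8 CPM in EYFP 1 to 4. Its levels in ATG7 1 to 3 were 51.4, 57.3 and 67.9 CPM. Every ATG7 library was above every EYFP library, with ATG7 3 highest, and the log2 fold change was 0.62 (SE 0.101). It was 0.59 without EYFP 3 and 0.50 without ATG7 3. In the annotation the exons of Igtp and Irgm2 share 162 bases, which is 8.01% of Igtp and 4.39% of Irgm2.

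Among the GKS genes, Iigp1 (ENSMUSG00000054072) encodes the best studied effector of the family and lies on chromosome 18. It was at 16.3, 14.5, 7.45 and 11.5 CPM in EYFP 1 to 4 and at 32.1, 31.1 and 36.3 CPM in ATG7 1 to 3. The controls themselves spread 2.19-fold, the widest control range of the 9 genes, with EYFP 3 lowest. Even so, the lowest ATG7 library was well above the highest control. The log2 fold change was 1.41 (SE 0.222), and 1.22 without EYFP 3.

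Gm4951 (ENSMUSG00000073555), a relative of Iigp1 in the same region of chromosome 18, was at 9.61, 7.74, 5.98 and 7.603 CPM in EYFP 1 to 4. The ATG7 libraries were at 18.95, 19.5 and 18.8 CPM, a coefficient of variation of 1.90%. They were nearly level with one another, while the controls were spread with a coefficient of variation of 19.2%. The log2 fold change was 1.30 (SE 0.138), and 1.19 without EYFP 3. The pair of genes spans 180.6 kb.

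Gm12250 (ENSMUSG00000082292, chromosome 11, 58187739 to 58189012, plus strand) encodes Irgb10, which attacks bacterial membranes in the cytosol, although GENCODE M21 lists it as a processed pseudogene. Its levels in EYFP 1 to 4 were 9.58, 8.37, 6.60 and 7.14 CPM, and in ATG7 1 to 3 they were 16.8, 17.9 and 18.2 CPM. The ATG7 libraries again lay close together and above all controls. The log2 fold change was 1.16 (SE 0.129), and 1.07 without EYFP 3.

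Ifi47 (ENSMUSG00000078920, chromosome 11, 49076587 to 49096974, plus strand), which encodes Irgd, was at 8.90, 9.04, 4.96 and 8.29 CPM in EYFP 1 to 4. In ATG7 1 to 3 it was at 11.4, 14.4 and 19.0 CPM. EYFP 3 was far below the other controls and ATG7 3 above the other ATG7 libraries, so both groups were wide. The log2 fold change of 0.94 (SE 0.221) was 0.77 without EYFP 3 and 0.72 without ATG7 3. Exons of the neighbouring genes Gm12188 and Olfr56 overlap 8.77% of its exonic bases.

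Tgtp1 and Tgtp2, which encode near-identical forms of Irgb6, gave different pictures. Tgtp1 (ENSMUSG00000078922, chromosome 11, 48985327 to 48994172, minus strand) was at 11.9, 13.2, 12.2 and 10.1 CPM in EYFP 1 to 4 and at 12.9, 10.5 and 11.1 CPM in ATG7 1 to 3. Its groups overlapped throughout, and the log2 fold change was -0.05 (SE 0.121), and -0.04 without EYFP 3. Over 13 alternative settings it ranged from -0.13 to 0.02, so its sign depended on the setting. Exons of Gm12185 overlap 6.96% of the exonic bases of Tgtp1.

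Tgtp2 (ENSMUSG00000078921, chromosome 11, 49057194 to 49064206, minus strand) was at 10.1, 8.09, 5.34 and 7.53 CPM in EYFP 1 to 4 and at 20.02, 19.9 and 29.3 CPM in ATG7 1 to 3. Every ATG7 library was well above every control, and ATG7 3 was highest. The log2 fold change of 1.57 (SE 0.206) was the largest in the family. It was 1.42 without EYFP 3 and 1.36 without ATG7 3.

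The split between the copies depends on how reads were assigned. Of the stretches of 50 bases in the annotated Tgtp1 transcripts, 81.2% also occur in transcripts of another gene, chiefly Tgtp2, and for Tgtp2 the share was 86.6%. Among the other 7 members, the shares ran from 0% for Gm12250 to 11.8% for Igtp. How the counting treated reads that match both copies is not given in the sources used here, so the values of each copy are uncertain. Summed, the copies were at 22.03, 21.3, 17.5 and 17.6 CPM in EYFP 1 to 4 and at 32.9, 30.4 and 40.4 CPM in ATG7 1 to 3. The sum was higher in each ATG7 library than in any control, with a log2 fold change of 0.82 (SE 0.119).

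**Figure D1:**
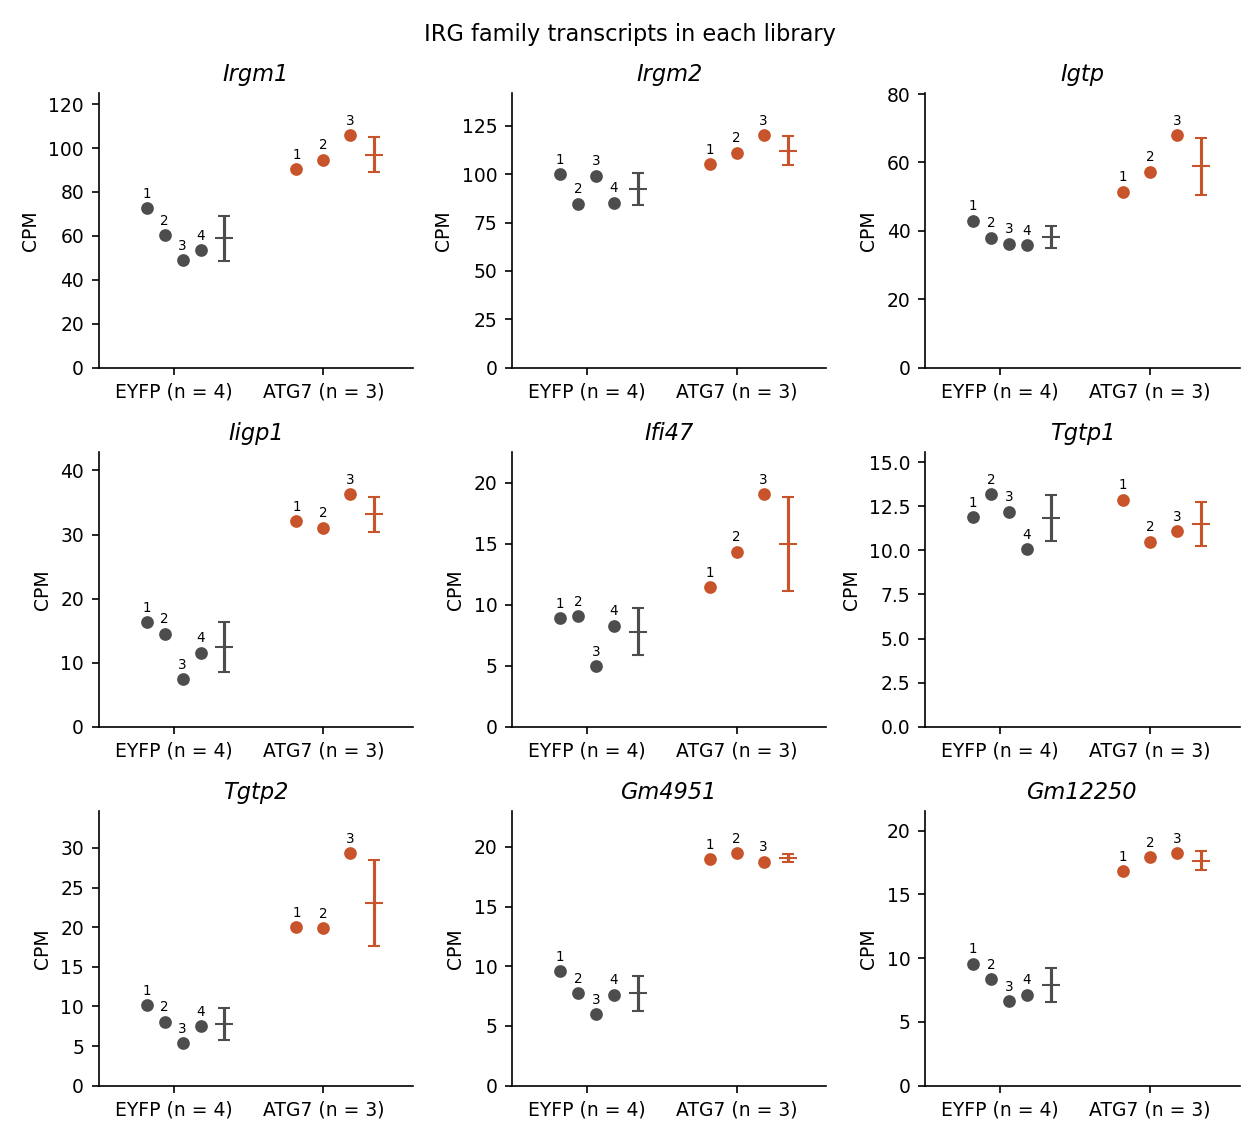
CPM (vertical axes, from 0) of the 9 IRG genes in each library; points are libraries labelled with their replicate number, and bars are the mean and SD of the 4 EYFP or 3 ATG7 libraries. The groups are separate in 8 panels, and in the Tgtp1 panel they overlap, with 10.1 to 13.2 CPM in EYFP and 10.5 to 12.9 CPM in ATG7.

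The promoters of the family were read for the elements that carry interferon signals to these genes. ISRE elements bind IRF factors and the complex that holds STAT2 and IRF9, and GAS elements are sites through which interferon gamma acts. RefSeq promoter windows (GRCm38.p6, 250 bases before to 50 after the start site) were matched for 7 of the 9 genes, and not for Iigp1 and Gm4951. RefSeq start sites can differ from those of GENCODE M21. The stretches of Irgm1, Irgm2 and Tgtp1 printed below lie inside their M21 genes. That of Gm12250 lies well upstream of its M21 gene, which starts at 58187739. The stretches that hold the matches are shown because genes of different fold change share them. Each is 60 bases, 5′ to 3′ on the gene's strand, with the ISRE core and GAS matches that lie wholly inside it in capitals.
Irgm1, chr11:48871425-48871484, minus strand: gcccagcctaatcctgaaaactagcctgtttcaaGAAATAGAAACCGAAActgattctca
Irgm2, chr11:58214873-58214932, plus strand: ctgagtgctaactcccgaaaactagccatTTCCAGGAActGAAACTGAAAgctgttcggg
Igtp, chr11:58199482-58199541, plus strand: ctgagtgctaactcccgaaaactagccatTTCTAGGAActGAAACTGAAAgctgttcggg
Tgtp1, chr11:48992304-48992363, minus strand: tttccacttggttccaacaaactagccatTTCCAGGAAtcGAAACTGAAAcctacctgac
Tgtp2, chr11:49064263-49064322, minus strand: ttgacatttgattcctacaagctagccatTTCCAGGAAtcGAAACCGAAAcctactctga
Gm12250, chr11:58183757-58183816, plus strand: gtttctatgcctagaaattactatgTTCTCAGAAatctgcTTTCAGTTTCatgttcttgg

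The ISRE core was searched as GAAA, any 2 bases, then GAAA, and GAS as TTC, any 3 bases, then GAA, both on either strand. The ISRE core was present in 6 of the 7 windows (Irgm1, Irgm2, Igtp, Tgtp1, Tgtp2 and Gm12250), against 3.44% of all 32851 RefSeq promoter windows. GAS was present in 5 of the 7 (Irgm2, Igtp, Tgtp1, Tgtp2 and Gm12250), against 8.30% of all windows. Irgm1 had overlapping ISRE matches and no GAS match, and these letters do not occur in the Ifi47 window. Gm12250 had an ISRE match on each side of its GAS match, and the one farther upstream begins before the printed stretch, so it is not in capitals there.

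In Irgm2, Igtp, Tgtp1 and Tgtp2 the elements followed each other at a fixed distance. Their joined form, a GAS match, any 2 bases and then the ISRE core, was defined after these promoters had been read, and it contains both shorter motifs. It occurred in 5 of the 32851 windows (0.0152%): those 4 and the window of Gm12185, another IRG gene. The printed stretches of Igtp and Irgm2 were identical at 59 of 60 bases, those of Tgtp1 and Tgtp2 at 48, and those of Igtp and Tgtp1 at 37. Genes with the joined motif had log2 fold changes from -0.05 in Tgtp1 to 1.57 in Tgtp2, copies whose separate values are uncertain. With these copies summed the log2 fold change was 0.82, beside 0.28 in Irgm2 and 0.62 in Igtp. A match is a description of the letters, not of binding.

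**Figure D2:**
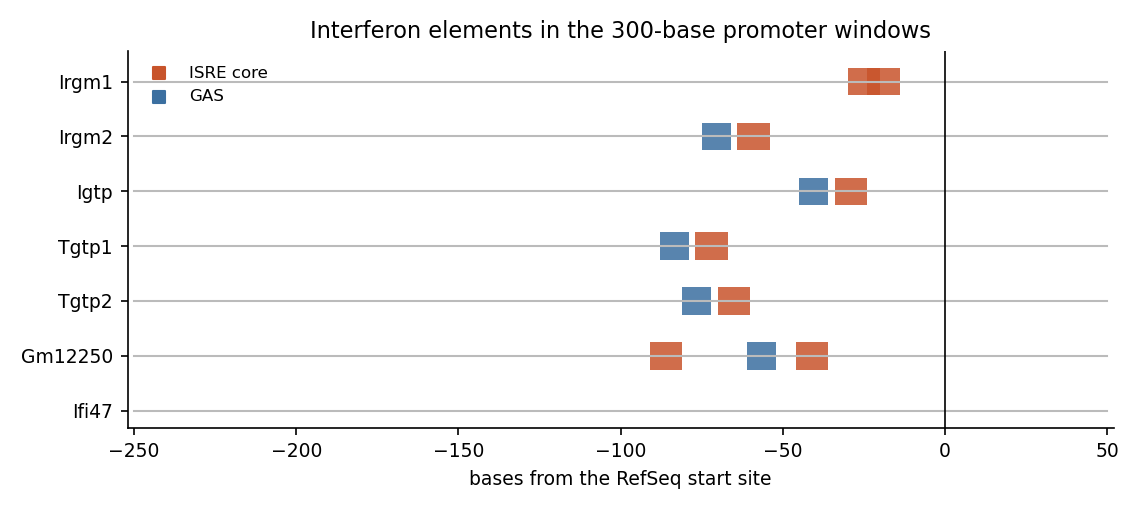
Matches to the ISRE core (red) and to GAS (blue) along the promoter windows of 7 IRG genes; the horizontal axis is the distance in bases from the RefSeq start site, at 0. All matches lie within 91 bases upstream of the start, and in Irgm2, Igtp, Tgtp1 and Tgtp2 a GAS match directly precedes an ISRE match.

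Levels of different genes were compared as CPM per kilobase of annotated exon. In the EYFP libraries Irgm2 was highest at 25.0 ± 2.30 CPM per kb (n = 4), followed by Igtp at 18.9 ± 1.63, Irgm1 at 10.1 ± 1.79 and Gm12250 at 6.22 ± 1.04. Tgtp1 was next at 3.69 ± 0.404 CPM per kb, and the control ranges of these 5 genes did not overlap between neighbours. Ifi47 (3.15 ± 0.776), Gm4951 (2.92 ± 0.561), Tgtp2 (2.65 ± 0.670) and Iigp1 (2.14 ± 0.667) followed, all in CPM per kb. Each of these overlapped with its neighbour, from Tgtp1 down to Iigp1. The value of Gm12250 rests on the short model of 1274 bases that M21 gives it. Those of Tgtp1 and Tgtp2, and so their places in the order, depend on how reads shared by the copies were counted.

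In the ATG7 libraries the top of the order of means stayed as it was, with Irgm2 at 30.4 ± 2.05, Igtp at 29.1 ± 4.14, Irgm1 at 16.7 ± 1.36 and Gm12250 at 13.9 ± 0.574 CPM per kb (n = 3). The ranges of Irgm2 and Igtp overlapped here, and in ATG7 3 Igtp was the higher, at 33.6 against 32.5 CPM per kb. Below Gm12250, Tgtp2 was at 7.85 ± 1.84 and Gm4951 at 7.21 ± 0.137 CPM per kb. Tgtp1, at 3.585 ± 0.388 CPM per kb, went from position 5 of the 9 in EYFP to position 9. The positions of Tgtp1 and Tgtp2 are uncertain, because the treatment of reads that match both copies is not known.

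**Figure D3:**
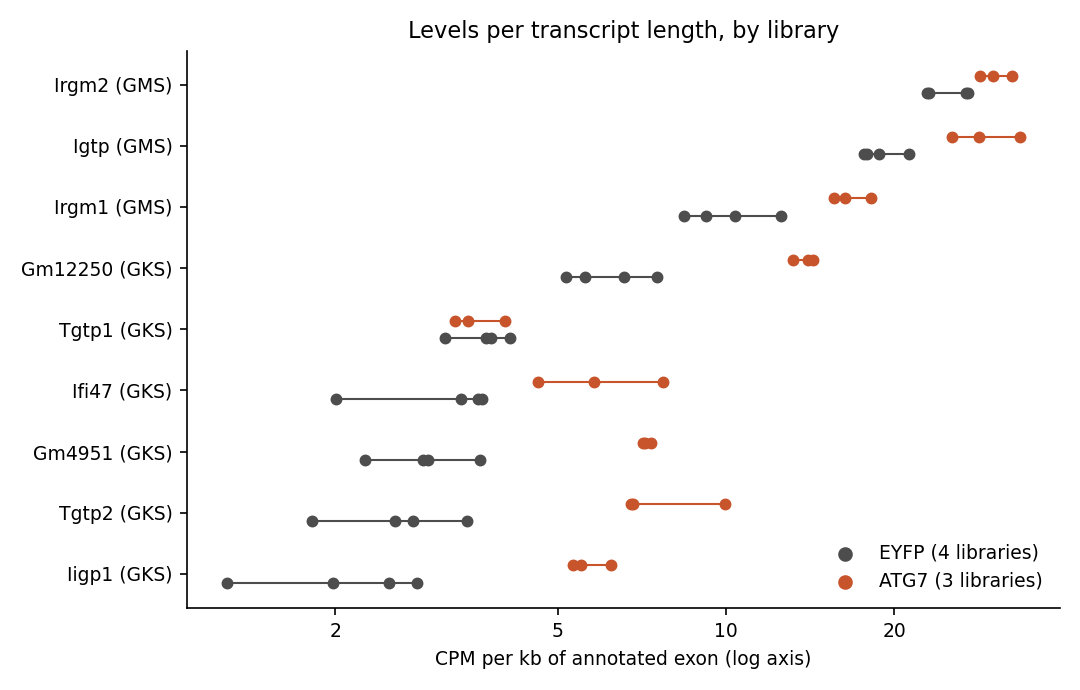
Level of each IRG gene per kilobase of annotated exon (horizontal log axis) in the 4 EYFP (grey) and 3 ATG7 (red) libraries; lines join the lowest and highest library of a group. The 3 GMS genes are at the top in both groups, and Tgtp1 is the gene whose group ranges overlap. The levels of Tgtp1 and Tgtp2 are uncertain because the copies share most of their sequence.

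The 3 GMS genes had log2 fold changes between 0.28 and 0.72, and the 6 GKS genes between -0.05 and 1.57. Summed per length, the GMS genes were at 60.9, 52.1, 53.2 and 50.01 CPM per kb in EYFP 1 to 4 and at 69.5, 74.8 and 84.3 CPM per kb in ATG7 1 to 3. The GKS sum was 24.7, 22.5, 16.4 and 19.5 CPM per kb in EYFP 1 to 4 and 41.3, 42.6 and 48.8 CPM per kb in ATG7 1 to 3. Both sums were higher in every ATG7 library than in any control, the GKS sum by the larger factor. The ratio of the GMS sum to the GKS sum averaged 2.65 ± 0.416 over the 4 EYFP libraries and 1.72 ± 0.0378 over the 3 ATG7 libraries. Its control values were 2.46, 2.31, 3.25 and 2.56, with EYFP 3 highest, and its ATG7 values were 1.68, 1.76 and 1.73. The GKS sum includes Gm12250, with its short gene model, and the Tgtp copies, so the size of the ratio is uncertain.

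**Figure D4:**
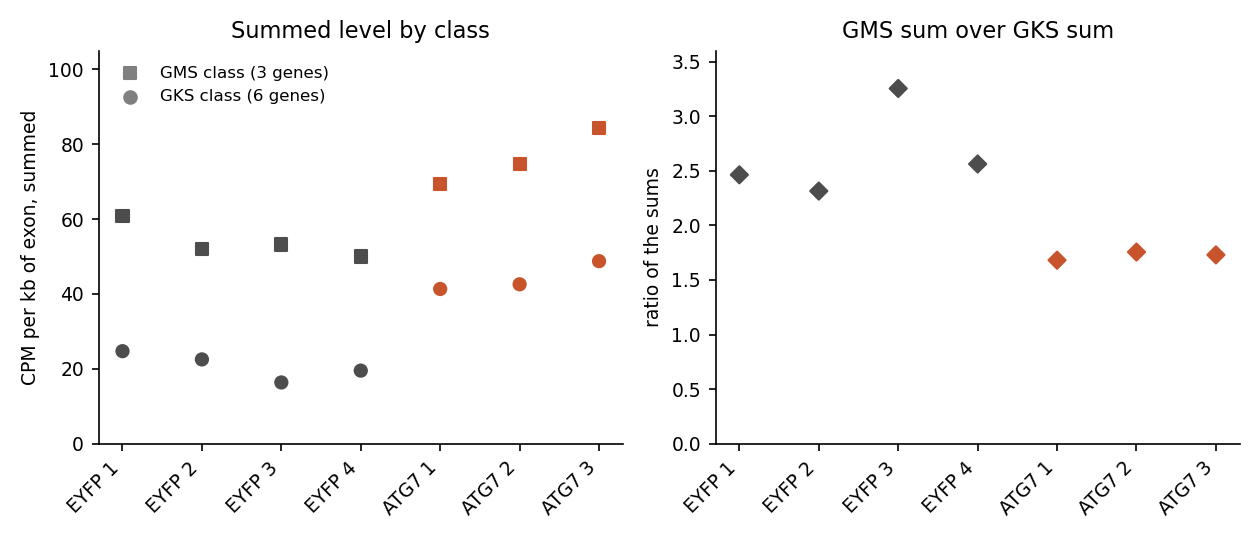
Left, CPM per kb of exon summed over the GMS genes (squares) and the GKS genes (circles) in each library, EYFP in grey and ATG7 in red; right, the ratio of the GMS sum to the GKS sum. The ratio lies between 2.31 and 3.25 in the EYFP libraries and between 1.68 and 1.76 in the ATG7 libraries. The GKS sum includes Gm12250 and the Tgtp copies, whose levels per length are uncertain.

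The libraries of a group were ordered alike across much of the family. EYFP 1 was the highest control for 7 of the 9 genes, and EYFP 3 the lowest for 6 of the 9, with EYFP 4 lowest for 2 and EYFP 2 for 1. In the ATG7 group, ATG7 3 was the highest library for 7 genes. Leaving out EYFP 1 raised the log2 fold change of Iigp1 to 1.57 and that of Tgtp2 to 1.72.

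Among the 5 genes whose log2 CPM followed the mean of the 9 members most closely over the 7 libraries were Cmpk2, Scpep1, Srp54b and Trim25. Cmpk2 encodes an interferon-induced nucleotide kinase of mitochondria, Trim25 a ubiquitin ligase of antiviral sensing, and Scpep1 a carboxypeptidase. Srp54b, a signal recognition particle gene, has near-identical copies with which it can share reads. The Pearson correlations of these 4 ran from 0.992 for Trim25 to 0.994 for Cmpk2, ranked among 15040 genes with a mean of at least 1 CPM. The libraries share the 2 groups, so the correlation carries the difference between the groups as well as the order within them. Cmpk2 was at 17.01, 13.99, 10.5 and 13.2 CPM in EYFP 1 to 4 and at 22.6, 24.8 and 29.8 CPM in ATG7 1 to 3. Like most IRG genes, it was highest among controls in EYFP 1 and lowest in EYFP 3.

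The genes that signal to the family were taken from lists, which were drawn up with earlier results of these data known. The counts of genes that passed, here and in the lists below, are therefore a description of each list. Ifng itself, the ligand, had 1, 0, 0 and 1 counts in EYFP 1 to 4 and 3, 6 and 5 counts in ATG7 1 to 3, too few for the test. Its receptor genes did not pass. Ifngr1 averaged 443.4 ± 54.1 CPM over the 4 EYFP libraries and 477.2 ± 48.6 CPM over the 3 ATG7 libraries (edgeR adjusted p = 0.771). Ifngr2 averaged 131.5 ± 7.95 CPM in the controls and 153.2 ± 13.6 CPM with ATG7 (edgeR adjusted p = 0.307). The kinase genes gave log2 fold changes of 0.08 (SE 0.0804) for Jak1 and 0.21 (SE 0.0617) for Jak2, and neither passed.

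Downstream of the receptor, Irf1, a transcription factor that acts on IRG promoters, averaged 46.7 ± 5.57 CPM in the controls and 67.5 ± 8.39 CPM with ATG7 and rose by 0.53 on the log2 scale (SE 0.105, edgeR adjusted p = 0.0483). Of this list 2 of 12 tested genes passed as higher, against 0.688% of all genes, and 0 as lower, with a list median of 0.22 against -0.00 for all genes. Irf1 did not pass without EYFP 2, EYFP 3, EYFP 4 or any of the 3 ATG7 libraries, nor with the size factors of DESeq2 or library size alone in place of TMM, a filter at a mean of 1 CPM, or the replicate number as a block. Batf2 had a log2 fold change of 0.89 (SE 0.181) and the feedback inhibitor Socs1 one of 0.47 (SE 0.181), and neither passed (edgeR adjusted p = 0.0527 and 0.331).

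On the type I interferon list 1 of 8 genes passed as higher, against 0.688% of all genes, and 0 as lower, with a median of 0.28. It was Stat2, whose product acts on ISRE elements, which rose by 0.93 (SE 0.131, edgeR adjusted p = 0.0137) and did not pass without EYFP 2, EYFP 4, ATG7 2 or ATG7 3. The guanylate-binding proteins, which act with the IRGs on vacuoles, had 7 of 10 tested genes higher, against 0.688% of all genes, and 0 lower, with a median of 0.76. Gbp2 averaged 18.4 ± 3.61 CPM in the controls and 40.6 ± 3.12 CPM with ATG7 and rose by 1.14 on the log2 scale (SE 0.137, edgeR adjusted p = 0.00705). Gbp6 rose by 1.67 (SE 0.208) and Gbp10 by 2.86 (SE 0.383), from means of 2.41 and 0.184 CPM in EYFP (edgeR adjusted p = 0.00705 and 0.0101). Gbp2 and Gbp6 also passed when any 1 library was left out, and Gbp10 did not pass without ATG7 2. The 7 Gbp genes that passed became 4 without EYFP 2 or ATG7 1, 3 without EYFP 4 or ATG7 3, and 2 without ATG7 2. Reads can be shared among Gbp genes as among the Tgtp copies.

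Other IRG homologues were mixed, with 1 of 6 tested genes higher, against 0.688% of all genes, and 0 lower. Gm5431, which lies beside Irgm1 on chromosome 11, averaged 18.4 ± 2.05 CPM in the controls and 28.8 ± 4.597 CPM with ATG7 and rose by 0.65 (SE 0.120, edgeR adjusted p = 0.0342). It did not pass without EYFP 2, EYFP 3, EYFP 4, ATG7 2 or ATG7 3. Gm12185 gave 0.59 (SE 0.135, edgeR adjusted p = 0.0861). F830016B08Rik gave 0.83, the largest value of this list, with a wide error and overlapping groups (SE 0.400, edgeR adjusted p = 0.459). The tandem genes 9930111J21Rik1 and 9930111J21Rik2 gave 0.25 (SE 0.178) and 0.23 (SE 0.151), with overlapping groups. Irgq, a distant relative, gave -0.08 (SE 0.0625), and Irgc1, a gene of the testis, was too low to test.

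The ATG8 conjugation genes, whose products IRG loading requires, had 0 of 11 called by the edgeR test, 0 by DESeq2 and 0 at an unadjusted p under 0.05, with a median of -0.01 and a range from -0.22 (Atg10) to 0.07 (Gabarap). Atg7 itself, which the vector was designed to express in neurons, gave -0.03 (SE 0.0787, edgeR adjusted p = 0.939). Atg5 gave 0.05 (SE 0.0910), Atg16l1 0.00 (SE 0.0685) and Map1lc3b -0.01 (SE 0.0678). Autophagy receptors and ubiquitin ligases had 0 of 7 called by edgeR and 0 by DESeq2. The 1 gene of that list with an unadjusted p under 0.05 was Trim21 (log2 fold change 0.21, SE 0.0712, edgeR adjusted p = 0.257). The inflammasome genes, some of which act on bacteria opened by Irgb10, had 0 of 8 called by edgeR, 2 by DESeq2 and 3 at an unadjusted p under 0.05. Over all genes edgeR called 0.755% and DESeq2 called 582 of 16962, and 2300 of 19199 had an unadjusted p under 0.05 with edgeR. In lists this short, 0 called by edgeR is near that share, so nothing is read from it. Casp4, which encodes caspase-11, had the smallest p of the inflammasome list, with a log2 fold change of 0.51 (SE 0.117, edgeR adjusted p = 0.0853).

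**Figure D5:**
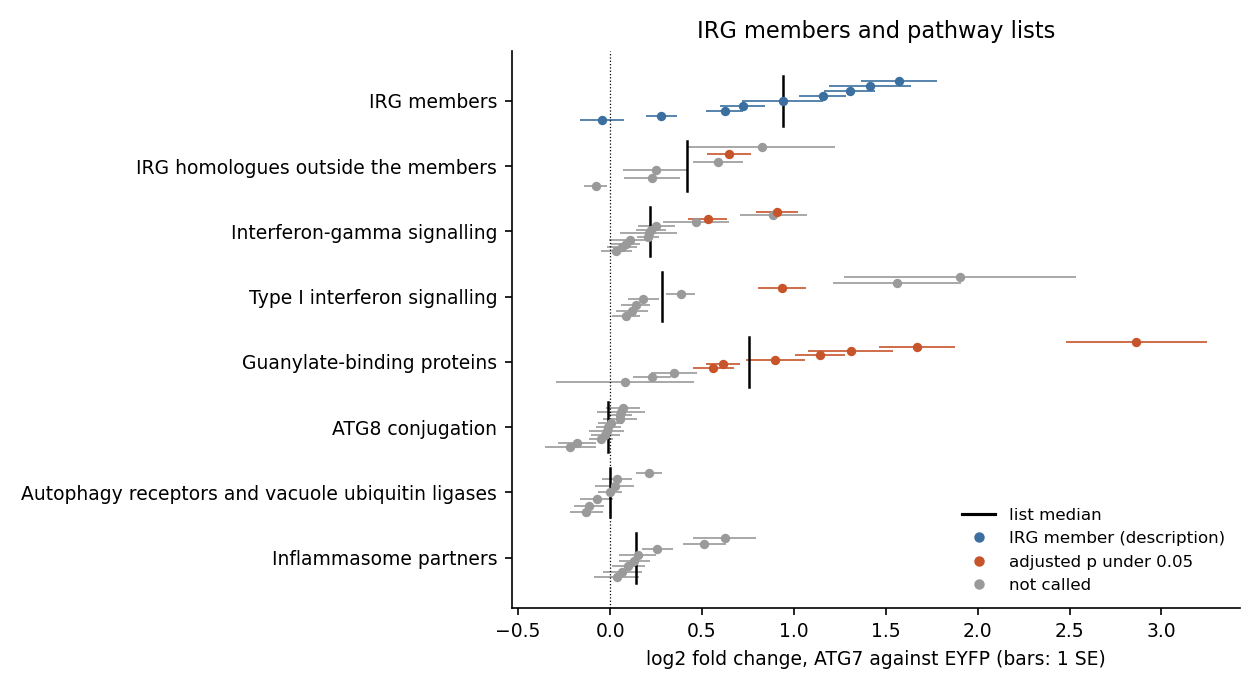
log2 fold change of ATG7 against EYFP (points, with bars of 1 SE) for the 9 IRG genes (blue, a description) and the tested genes of 7 lists, in red where the edgeR adjusted p was under 0.05; black lines are list medians. The guanylate-binding proteins have the most red points, 7 of 10, and the ATG8 conjugation genes centre on -0.01.

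Lymphocytes are a known source of interferon gamma, and their markers were examined beside the family. All 10 markers of T and NK cells had positive log2 fold changes, with a median of 1.604, and 0 passed the edgeR test, where 5 passed with DESeq2 (of all genes, 582 of 16962) and 8 had an unadjusted p under 0.05 (of all genes, 2300 of 19199). The groups did not overlap in 7 of the 10, against 6.33% of all genes. Summed over the list, they were at 7.15, 6.56, 2.75 and 4.71 CPM in EYFP 1 to 4 and at 8.74, 12.1 and 23.7 CPM in ATG7 1 to 3. No marker of the list was at 0 in all libraries. EYFP 3 was lowest and ATG7 3 highest, as for Irgm1, Iigp1, Ifi47, Tgtp2 and Gm12250. For Irgm2, Igtp, Tgtp1 and Gm4951 this was not so. The 6 endothelial and mural markers were also all positive, with a median of 0.30 and 0 called by edgeR. Their sum was 373.3 to 642.5 CPM in EYFP and 496.5 to 883.0 CPM in ATG7, highest in ATG7 3. Of the 8 border macrophage and monocyte markers 4 were positive, with a median of 0.00, and of the 5 choroid plexus markers 0. The part of any of these cells in the IRG levels was not tested. In bulk RNA more cells of a type cannot be told apart from more RNA per cell.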

How the data were processed

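The authors deposited raw counts per Ensembl gene for 7 libraries. The submitters' processing notes name fastp 0.20.1, HISAT2 2.0.5, featureCounts and the build mm10 (GRCm38). Strand setting and handling of shared reads are not given in the sources used here. Symbols, coordinates and exon lengths came from GENCODE M21, which matched 55141 of 55401 identifiers. The 37 mitochondrial genes were listed at 0.

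All 7 libraries entered the edgeR 4.0.16 quasi-likelihood test (R 4.3.3, TMM, filterByExpr, robust, no covariate), two-sided, adjusted over 19199 genes. SE is the absolute log2 fold change over the square root of F. DESeq2 1.42.0 was an alternative. The fit was tested on simulated data, with a single simulated set for each fold tried. In each set the share of unchanged genes among the calls was above the nominal level, most at the smallest fold. Calls of small changes may therefore be less certain than their adjusted p states, although a single set per fold cannot settle this. CPM intervals were not computed, and the depth floor covers counting error only. Libraries of a group differed by 21.0 to 45.4 chi-square per degree of freedom, so each counts once. Alternatives were other scalings, filters and tools, the replicate number as a block, each library left out, and the Tgtp copies summed.

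Members and lists were chosen with earlier results of these data known. Named were all members, genes of the interferon gamma, homologue and ATG8 conjugation lists, up to 3 called genes of each other list (or that of smallest p), and the 5 genes most correlated with the members. Xist, Ttr, Csf1r and P2ry12 were named in addition, for the library checks. One gene that the naming rule selects is not reported here.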

Additional observations from a re-analysis of the deposited data

Results flagged for a closer look

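Dixon's criterion was applied to the 4 EYFP values of 71 genes, the members and the tested list genes, and singled out a library in 2 of them. Chance flags about 1 group in 20, which is 3.55 of 71. Gm5431 was at 21.5 CPM in EYFP 1, against 17.2 to 17.5 CPM in the other 3 EYFP libraries. Gbp9 was at 63.0 CPM in EYFP 1, against 45.2 to 47.4 CPM in the others. The 9 IRG genes had no such value.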

How the results depend on the processing

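The number of genes that differed was 145 (132 higher, 13 lower), against 582 with DESeq2 (406 higher, 176 lower) and 297 when all genes with counts were tested (234 higher, 63 lower). Without 1 replicate it ranged from 28 to 277. The 6 IRG genes that passed became 7 with DESeq2 and 5 with no filter, and 2 to 6 without 1 replicate. The 11 list genes that passed became 17 with DESeq2 and 3 to 14 without 1 replicate. With the replicate number as a block (replicate block), edgeR called 0 genes, 0 IRG genes and 0 list genes, and 1256 of 19199 genes had an unadjusted p under 0.05. No sign was seen that the numbers pair the libraries: deviations of same-numbered libraries correlated at -0.06, -0.18 and 0.07, and 0 of 3 pairs correlated best with their own number. With so few libraries this check cannot exclude a pairing. The log2 fold changes of the 8 IRG genes other than Tgtp1 were positive under the 13 alternatives that kept Tgtp1 and Tgtp2 apart, and that of the summed copies was positive too. The cause of the changed counts was not tested.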
